A study of Gallus gallus with 12 samples.

Results

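In the chicken oviduct, 45 of 18241 numbered genes were abundant in the magnum of laying hens at 300 days of age, low in the uterus of the same age, and below 0.3 of their laying mean in every magnum library taken at 120 days. They were chosen by the deposited values themselves. A member had a mean of at least 500 scaled counts in the 3 magnum libraries at 300 days. The lowest of those 3 libraries was at least 4 times (highest value + 1) of replicates 2 and 3 of the magnum at 120 days, and of the 3 uterus libraries at 300 days. In addition, replicate 1 of the magnum at 120 days, the most advanced library of that age in the wording of the rule, stood below 0.3 of the 300-day mean. The first condition left 6716 genes, the fold over replicates 2 and 3 left 154, the fold over the uterus left 95, and the limit on replicate 1 divided those 95 into the 45 members and 50 genes that had already reached the limit. The high level at 300 days, the low levels at 120 days in the magnum and the low levels at 300 days in the uterus are therefore what the members were selected on, and they are given below as a description with no test. The design holds 2 ages, so a late rise means only a low level in 1 library and no order in time was measured.

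Egg white is made in the magnum of the oviduct, and the shell is laid down further along, in the uterus. In the maturing hen oestrogen drives the growth and differentiation of the tubular gland cells of the magnum, and with a second steroid such as progesterone it raises the transcripts of egg white proteins, among them ovalbumin, ovotransferrin, ovomucoid and lysozyme, to very high levels. Goblet cells of the lining secrete avidin under progesterone. The deposited tables give numbered identifiers without symbols, and 0 of the 45 members matched the chicken reference table of gene names used here. No member can therefore be assigned to one of these proteins, no sequence is shown, and apart from 2 identifiers the members are called by their rank in mean level in the magnum at 300 days.

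Lohmann layers, a commercial egg-laying strain, were sampled at 120 and at 300 days of age, prelaying and laying by the title of the series, and messenger RNA of the magnum and of the uterus was sequenced in 3 libraries per segment and age. No treatment or genotype is given for any group, and all 12 libraries share the strain. Whether libraries of a group are different birds is not stated in the labels, so a p-value measures only the spread between these libraries, which may be technical. Values are called scaled counts. They were treated as read counts brought to a common level and cut to whole numbers before deposit, which was inferred from the values themselves. Column totals ran from 14499548 to 77432154 and are not depth. The steps between low values gave about 21483813 reads for replicate 1 of the magnum at 120 days and, for the laying magnum libraries, about 27463758, 32644247 and 23051138. For the remaining 8 libraries no depth could be had.

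Over the 6716 genes past the first condition the 3 magnum libraries at 120 days were alike in their median level, at 85.8%, 79.7% and 80.6% of the 300-day mean. The deposited values already lay at a common level between libraries, so nothing is read from this likeness. Among the 95 genes the 3 libraries were not alike, and the rule itself sets how. The 50 genes chosen for reaching the limit in replicate 1 had medians of 57.9%, 4.11% and 6.08% in replicates 1 to 3, and the 45 members, kept below 30%, had medians of 11.5%, 1.59% and 2.30%. The comparison of the segments at 120 days is therefore also given without replicate 1. The classes by replicate 1 and the log2 differences of single members between the segments are given only with it. In bulk tissue fewer cells of a type and less RNA per cell cannot be told apart.

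The 45 members together held the larger part of the scaled counts of every laying magnum library. Their share of the scaled counts was 64.7%, 68.1% and 50.9% in the 3 libraries, and 30.7%, 0.252% and 0.704% in replicates 1 to 3 at 120 days. In the uterus it was 0.264% to 0.740% at 120 days and 0.353% to 0.511% at 300 days. All 3 laying magnum libraries were above every other library, and replicate 1 lay between them and the rest. Most of the share belonged to the most abundant member. The other 44 members took 15.4%, 14.7% and 14.8% of the 3 laying magnum libraries, a mean of 15.0% ± 0.378 (SD, n = 3), while the most abundant one ranged from 36.1% to 53.4%. In replicate 1 at 120 days the other 44 held 4.76%, in replicates 2 and 3 they held 0.221% and 0.334%, and in the 6 uterus libraries 0.241% to 0.716%.

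**Figure D1:**
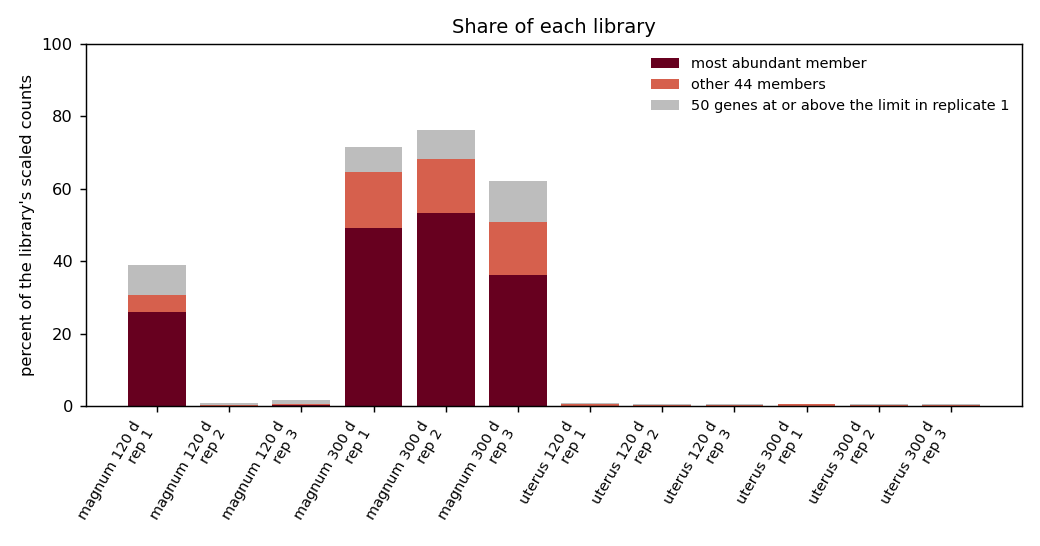
Percent of each library's scaled counts held by the most abundant member, by the other 44 members and by the 50 genes that had reached the limit in replicate 1; each bar is 1 library. The members fill 50.9% to 68.1% of the magnum libraries at 300 days and 30.7% of replicate 1 at 120 days, and at most 0.740% of every other library.

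The levels of the members at 300 days spanned several orders of magnitude. Means ran from 599 to 29423225 scaled counts with a median of 5344, while the median was 1380 over the 6716 numbered genes past the first condition. Means of at least 100000 were found for 10 members, 10000 to 100000 for 8, 1000 to 10000 for 23 and below 1000 for 4. Of the 18 numbered genes with a 300-day magnum mean of at least 100000, 10 were thus members and 5 more belonged to the 50 genes that had reached the limit in replicate 1.

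**Figure D2:**
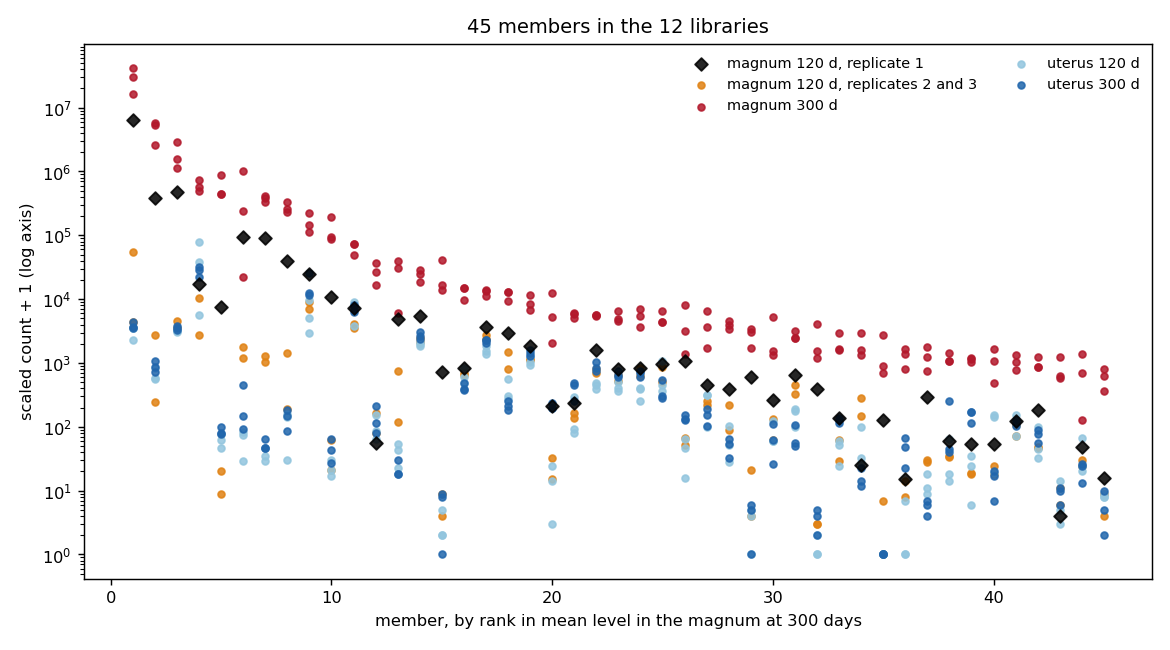
Scaled count + 1 (log axis) of each of the 45 members in the 12 libraries, ordered by the mean in the magnum at 300 days; each point is 1 library. Replicate 1 of the magnum at 120 days, drawn as black diamonds, is at least 10 times the higher of replicates 2 and 3 for 13 members, and lies among the low libraries for others, such as the member of rank 12.

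The most abundant member, gene4368, had scaled counts of 30674623, 41356959 and 16238092 in the laying magnum. At 120 days it stood at 6511037, 4406 and 53990 in replicates 1 to 3, and in the uterus at 3487, 3561 and 2326 at 120 days and 3628, 4435 and 3558 at 300 days. Replicate 1 was thus at 22.1% of the laying level, replicate 3 at 0.183% and replicate 2 at 0.0150%, the last at the level of the uterus libraries, which held 0.00791% to 0.0151%.

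The member of rank 2 read 5694721, 5263853 and 2628288 at 300 days and 389882, 240 and 2739 at 120 days in the magnum. Its uterus libraries read 553 to 828 at 120 days and 721 to 1075 at 300 days, so that replicate 2 of the magnum at 120 days lay below all 6 of them. Rank 3 read 1133011, 2889847 and 1565946 at 300 days, and 479677, 3540 and 4576 at 120 days. In the uterus it stood at 3073 to 3315 and 3237 to 3765, a range that includes magnum replicate 2. For both members the groups of the magnum did not overlap between the ages, which the rule had fixed.

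Ranks 4 and 5 had 300-day means of 593207 ± 121939 and 586047 ± 250129 scaled counts (SD, n = 3 each), which per kilobase of deposited length are 369140 and 109296. Outside the laying magnum their levels lay far apart. Rank 4 stood at 17206, 2776 and 10378 in the magnum at 120 days, and at 78708, 5570 and 37916 in the uterus of that age and 31552, 28263 and 22225 in the uterus at 300 days. Rank 5 stood at 7511, 8 and 19 in the magnum at 120 days, and at 45 to 77 and 77 to 99 in the uterus. Rank 4 had the highest uterus mean of the 45, whereas rank 5 lay in magnum replicate 2 at 0.00137% of its laying level.

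Levels can be set beside each other only per length. On the deposited FPKM scale, which divides by length, the 300-day magnum means of ranks 1 and 2 were 463513 and 251373, and the median of the 45 was 56.1, against 17.9 for the 6716 genes past the first condition. The 2 deposited scales did not match for every gene. The scaled count per kilobase of deposited length divided by the FPKM value had a median of 21.9 over the 6716 genes and of 18.7 over the members. It was more than 2 times below the median of the 6716 for 3 of 45 members and for 510 of the 6716. The lowest ratio of all 6716 was 0.311, for the member of rank 3. By library that ratio ran from 0.295 to 0.356 in the laying magnum and from 1.82 to 2.69 in the uterus, and its cause was not tested. That member has the longest deposited length of the 45, 28229 bases, and had rank 3 by FPKM and rank 8 by scaled count per kilobase. Deposited lengths of the members ran from 366 to 28229 bases with a median of 3147, against 4190 for the 6716 genes. Lengths under 1000 bases were found for 8 of 45 members (17.8%) and for 4.85% of the 6716, and lengths of at least 10000 bases for 9 of 45 members and 8.84%.

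Within the magnum at 120 days the members divided by how far replicate 1 stood above the other libraries of that age. Replicate 1 was the highest of the 3 for 41 of 45 members and the lowest for 3. It was the highest for 50 of the 50 genes that had reached the limit and for 48.6% of the 6716. The caps of the rule bear on these counts, and nothing is read from them. Replicate 1 was at least 10 times (value + 1) of the higher of replicates 2 and 3 for 13 members, 4 to 10 times for 3, 2 to 4 times for 6 and under 2 times for 23. For the 50 genes these counts were 23, 24, 3 and 0, and over the 6716 the shares were 0.670%, 0.998%, 2.93% and 95.4%. A large step was thus not particular to the members. The limit of the rule bears on the division of the members, since a member already at 3% of its laying level in replicate 2 or 3 could not be 10 times higher in replicate 1. Of the 26 members with both replicates below 3%, replicate 1 was at least 10 times higher for 13, 4 to 10 times for 3, 2 to 4 times for 3 and under 2 times for 7. Of the 19 others it was 2 to 4 times higher for 3 and under 2 times for 16.

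The 13 members with the large step in replicate 1 included 8 of the 10 most abundant ones. Their median 300-day mean was 272810 scaled counts, and in replicate 1 they stood at 1.28% to 26.0% of it with a median of 17.4%. The higher of replicates 2 and 3 had a median of 0.246% of the laying level, and the highest of the 6 uterus libraries one of 0.0511%. The 23 members with a step of under 2 times had a median 300-day mean of 5098 scaled counts. Their median was 6.21% in the higher of replicates 2 and 3 and 8.55% in the highest uterus library, so that these medians lay well above those of the first set. The classes were drawn from the same values and were not tested.

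The member with the lowest replicate 1 level among those with a 300-day mean of at least 5000 was gene22538, of rank 12, with a deposited length of 585 bases. Its scaled counts were 26697, 36592 and 16450 in the laying magnum, and 54, 80 and 162 in magnum replicates 1 to 3 at 120 days. In the uterus it stood at 63, 85 and 152 at 120 days and 114, 211 and 80 at 300 days. Replicate 1 was the lowest of all 9 libraries outside the laying magnum, at 0.203% of the 300-day mean, although that library held gene4368 at 22.1%. The 9 low libraries overlapped, and only the 3 laying magnum libraries stood apart.

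Replicate 1 was also close to replicates 2 and 3, or below them, in some members of lower rank. The member of rank 43 stood at 3, 5 and 10 in replicates 1 to 3 at 120 days and at 616, 579 and 1229 at 300 days. Rank 36 went from 14, 7 and 13 to 818, 1649 and 1360. Rank 34 stood at 24 in replicate 1 and at 149 and 281 in replicates 2 and 3, and at 2919, 1580 and 1321 at 300 days, so that replicate 1 was below both other libraries of its age. The same order, replicate 1 lowest of the 3, was seen for ranks 12, 34 and 43. One read in replicate 1 was worth 1.167 scaled counts, so 3 scaled counts there stand for only a few reads.

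At the other end, members of middle rank held a marked part of their laying level in all 3 libraries at 120 days. Rank 17 stood at 3605, 2417 and 2761 at 120 days and 13617, 13660 and 11180 at 300 days, or 28.1%, 18.9% and 21.5% of its 300-day mean. That of rank 22 stood at 1586, 803 and 694, and at 5687, 5727 and 5429 at 300 days, the narrowest spread of the 45 among laying libraries, with a coefficient of variation of 2.88%. In rank 17 the 3 libraries at 120 days lay within a narrow range, in rank 22 replicate 1 was above the other two, and in both all of them lay below the laying libraries. Replicates 2 and 3 were both below 5% of the laying level for 29 of the 45 members and both below 1% for 14. For the 50 genes that had reached the limit in replicate 1 these counts were 20 and 10. Over the 6716 genes the shares were 0.908% and 0.402%. The rule capped replicates 2 and 3 in both lists, so nothing about the members is read from these counts. Replicate 3 was above replicate 2 in 33 of 45 members (73.3%) and in 42 of the 50 (84.0%), against 56.3% of the 6716 genes.

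**Figure D3:**
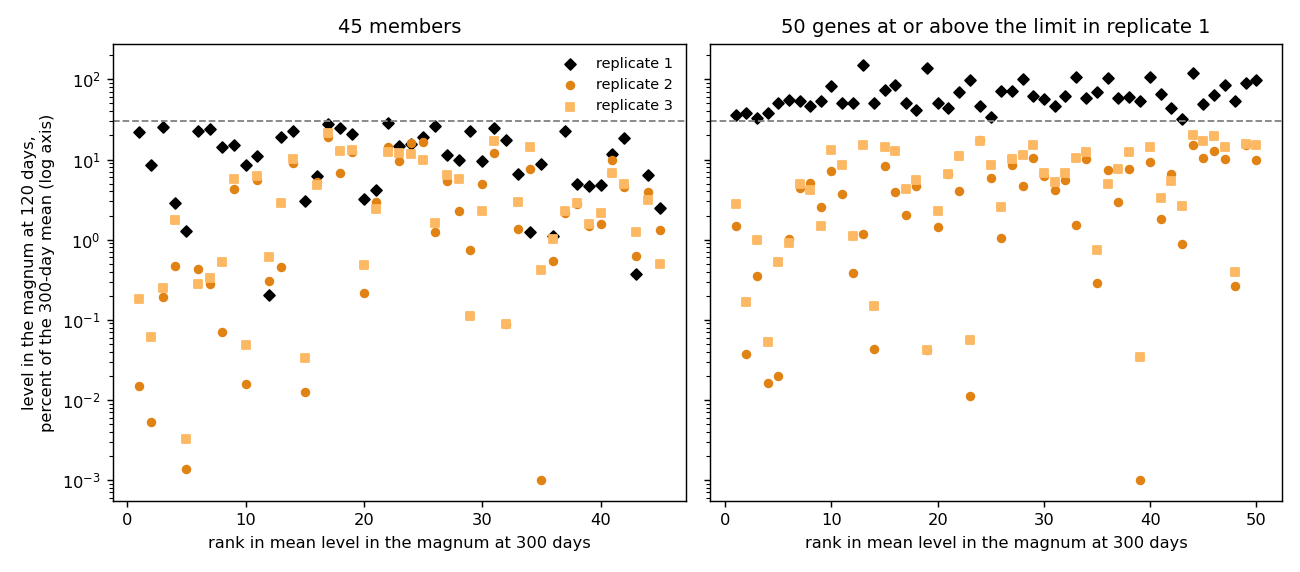
Level in each magnum library at 120 days as percent of the gene's own 300-day mean (log axis), for the 45 members and for the 50 genes at or above the limit of 30% (dashed line) in replicate 1; a listed 0 is drawn at 0.001%. The side of the line on which replicate 1 lies is fixed by the rule. The members' replicate 1 runs from 0.203% to 28.2%.

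The members that lay nearest to the limits of the rule were continuous with the genes outside it. The lowest 300-day mean inside was 599 and the nearest outside 496 scaled counts. The lowest fold over replicates 2 and 3 was 4.05 inside and 3.70 outside, and that over the 300-day uterus 4.22 inside and 3.91 outside. Replicate 1 was at 28.2% of the 300-day mean for the member nearest to the limit and at 32.0% for the nearest gene beyond it.

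The laying magnum libraries differed among themselves more widely for the members than for the 6716 genes past the first condition, whose median level was lower (1380 against 5344 scaled counts). The highest was a median of 1.98 times the lowest, against 1.49 for the 6716 genes and 1.69 for the 50 that had reached the limit in replicate 1. A difference of at least 2-fold was found for 22 of 45 members (48.9%), for 16 of the 50 (32.0%) and for 15.3% of the 6716. Replicate 2 was the highest library for 26 members (57.8%), for 36 of the 50 and for 38.9% of the 6716. A high replicate 2 was thus not particular to the members. Replicate 3 was the lowest for 22 members (48.9%), for 14 of the 50 and for 48.6% of the 6716. No test of these shares was made, since genes of 1 library are not replicates.

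For 5 members the laying libraries differed at least 4-fold. The widest was the member of rank 6, at 22548, 1012441 and 236777 scaled counts in replicates 1 to 3, a 44.9-fold range. Its replicate 1 at 300 days was below the 95479 of replicate 1 at 120 days, the only case among the 45 in which the 2 ages of the magnum overlapped. Replicates 2 and 3 at 120 days held it at 1803 and 1199 and the uterus at 28 to 445.

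Replicate 1 at 300 days was also low, and replicate 2 high, for 3 further members. Rank 20 stood at 2022, 12393 and 5316, rank 26 at 1360, 7970 and 3133, and rank 44 at 126, 1400 and 695. Rank 13 differed in the other direction, at 31241, 6100 and 39383. The means of these 5 members rest on libraries that disagree several-fold, whereas the other 40 kept within 4-fold.

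**Figure D4:**
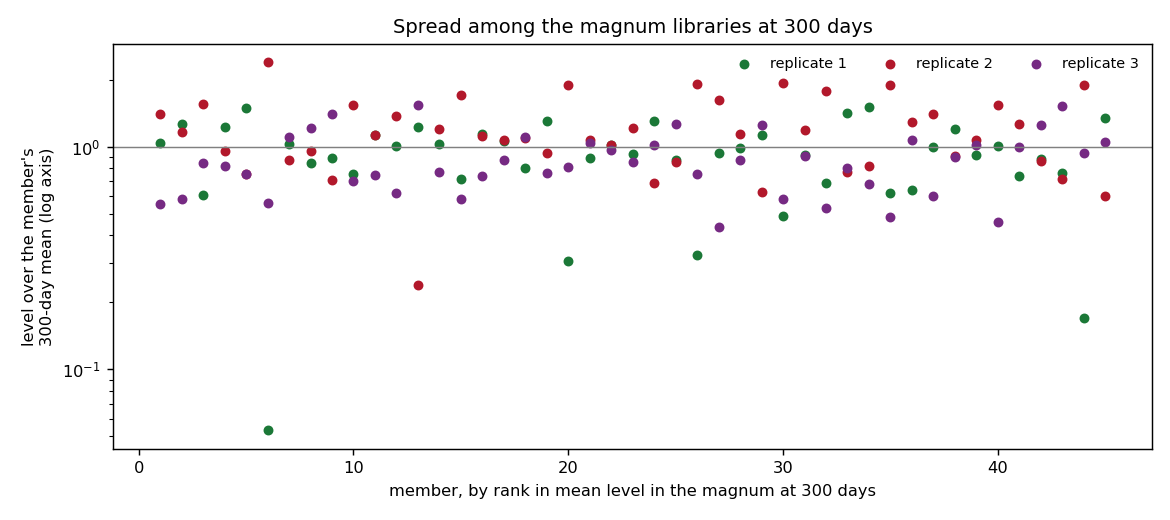
Level of each member in the 3 magnum libraries at 300 days over the member's own mean of those libraries (log axis), by rank; each point is 1 library. The 3 points span at least 2-fold for 22 of the 45 members and 44.9-fold for the member of rank 6.

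In the uterus at 120 days, whose libraries the rule did not read, the members were far below the laying magnum as well. For 43 of 45 members the lowest laying magnum library was at least 4 times (highest value + 1) of the 120-day uterus libraries. The same held for 48 of the 50 genes that had reached the limit in replicate 1, and for 2.29% of the 6716 genes. The laying magnum values were themselves chosen by the rule, so nothing about the members is read from these counts. The exceptions among the members were ranks 40 and 44. Rank 40 had a lowest laying magnum library of 490, and uterus libraries at 120 days of 151, 18 and 143. Rank 44 had 126 against 19, 67 and 23. A uterus library at 120 days reached the lowest laying magnum library in 0 of the 45 members and 0 of the 50, against 63.0% of the 6716 genes. For the same reason nothing about the members is read from this. Uterus means of at least 1000 at both ages were found for 8 members and means below 10 at both for 6. The member of rank 35 was listed at 0 in all 6 uterus libraries, and stood at 129, 0 and 6 in the magnum at 120 days and 902, 2760 and 706 at 300 days.

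As a part of their own laying magnum level, most members stood higher in the uterus than gene4368 did. In scaled counts it was not so. The uterus means of gene4368 were 3125 at 120 days and 3874 at 300 days, against medians of 79.3 and 135 over the 45. Relative to the 300-day magnum mean, gene4368 stood in the 6 uterus libraries at 0.00791% to 0.0151%, and between 2 and 8 of the other 44 members lay below that in a given library. That mean is the divisor here and gene4368 is the member with the highest one, so nothing is read from this order. Medians over the 45 were 1.17% to 1.58% at 120 days and 2.05% to 2.55% at 300 days. Carry-over of magnum reads or RNA into the uterus libraries was not tested.

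The uterus at 300 days was compared with the uterus at 120 days, a comparison that the rule did not choose on, although it capped the 300-day libraries. Of the 38 members tested, 5 rose and 0 fell, where 5.97% of all 14284 genes tested rose and 6.64% fell. The 5 make 13.2% of the members tested, and 17 members had an unadjusted limma p below 0.05, of which 13 were higher at 300 days, where 32.1% of all genes tested had one and 16.2% had one and were higher. The median log2 change was 0.43 over the members and 0.04 over all genes tested. A further 7 members did not reach 10 scaled counts in 3 uterus libraries and were not tested. They were ranks 15, 29, 32, 35, 37, 43 and 45, with a highest uterus value of 17.

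The rises with the largest fold were from very low levels. The member of rank 20 stood at 23, 13 and 2 scaled counts in the uterus at 120 days and 197, 194 and 238 at 300 days, a log2 change of 4.39 ± 0.75 (SE, limma adjusted p = 0.0167, n = 3 each). Rank 36 went from 0, 6 and 0 to 66, 47 and 22 (4.46 ± 0.90, limma adjusted p = 0.0261), and rank 39 from 5, 34 and 23 to 168, 171 and 115 (3.13 ± 0.67, limma adjusted p = 0.0308). In each, all 3 libraries at 300 days were above all 3 at 120 days, and all stayed far below the laying magnum. The remaining rises were smaller and started higher. Rank 22 went from 491, 459 and 393 to 839, 1024 and 740 (0.95 ± 0.19, limma adjusted p = 0.0273) and rank 24 from 249, 388 and 411 to 596, 689 and 758 (0.99 ± 0.25, limma adjusted p = 0.0434).

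The calls did not outlast the loss of any 1 library at 300 days, while the sizes mostly did. Without any 1 of the 3 uterus libraries at 300 days 0 members passed, and the genes that rose among all genes fell from 853 to between 41 and 126. In those fits the log2 change was 4.29 to 4.44 for rank 20, 0.82 or more for rank 22, 0.91 to 1.08 for rank 24 and 3.03 to 3.31 for rank 39. Rank 36 then had too few libraries of 10 scaled counts to be tested, and its log2 change was 2.83 with a pseudocount of 5 in place of 1. Without replicate 3 at 120 days 1 member rose, and 149 of all 14046 genes tested did. Without replicate 2 at 120 days 8 members rose and 1 fell, beside 665 and 783 of all 14037 genes tested. Without replicate 1 at 120 days 7 members rose, and 1423 of all 14024 genes tested did. On log2(FPKM + 1) the log2 changes were smaller, at 2.20, 0.54, 0.68, 0.64 and 1.01 for ranks 20, 22, 24, 36 and 39. The 3 uterus libraries at 300 days lay above the 3 at 120 days for 12 of all 45 members (26.7%) and below them for 4 (8.89%), against 29.1% and 12.1% of the 6716 genes, so that these shares were near those of other genes.

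**Figure D5:**
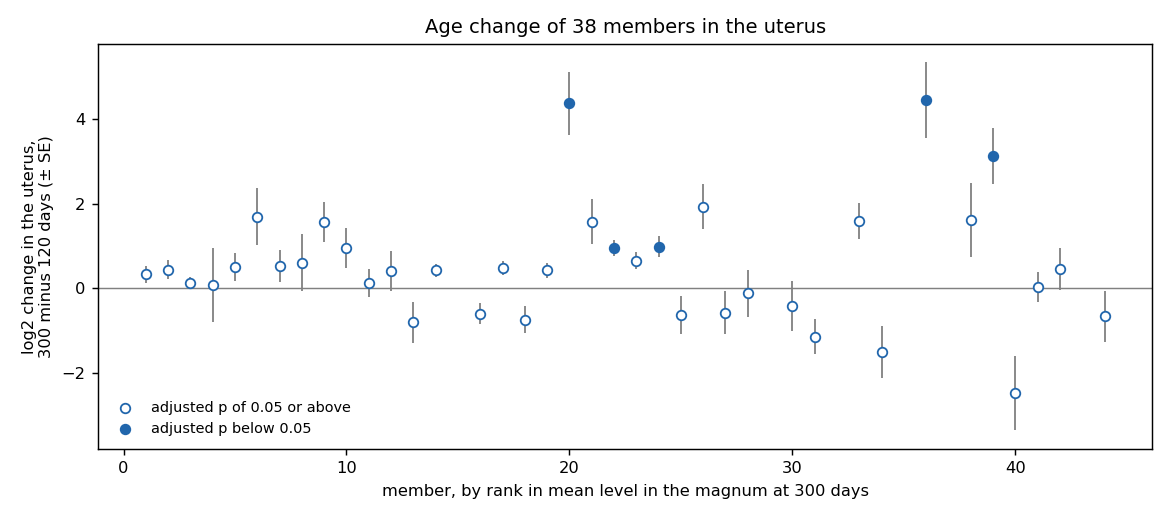
Log2 change (300 minus 120 days, on log2(scaled count + 1)) of the 38 members tested in the uterus, by rank; points are estimates from 3 libraries per age and bars are ± SE. The 5 filled points passed an adjusted p of 0.05 and all lie above 0.

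At 120 days the uterus and the magnum were compared to see whether the members already differed between the segments. Of 38 members tested, 0 passed in either direction, and 0.014% of the 14308 genes tested did, so that this test called almost nothing. At an unadjusted p below 0.05, 12 of the 38 (31.6%) were lower in the uterus and 0 higher, where 3.75% of all genes tested were lower at that threshold. With the replicate number as a block, 17 members had an unadjusted p below 0.05, of which 2 were higher in the uterus, against 16.3% of all genes tested, and again 0 passed after adjustment. The members were chosen as magnum-high at 300 days and the rule read these magnum libraries, so these counts are a description and nothing about the members is read from them. The median log2 difference, uterus minus magnum, was -0.87 over the members and -0.01 over all genes tested, and 5 of the 38 were above 0. A limma fit of all 12 libraries, which takes the spread from all 4 groups, called 2 members and 0.376% of all genes tested lower in the uterus, but it includes the laying libraries through which the members were chosen.

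By library, all 3 magnum values at 120 days were above all 3 uterus values for 16 of 45 members (35.6%) and below them for 0. For the 50 genes that had reached the limit in replicate 1 these counts were 17 (34.0%) and 0. Over the 6716 genes the shares were 11.5% and 3.98%. Replicates 2 and 3 alone were above the uterus for 17 members and for 17 of the 50, against 14.9% of the 6716. The comparison without magnum replicate 1 also called 0 members, and of all 14160 genes tested it called 0 higher and 1 lower in the uterus. The median log2 difference was then -0.39 over the members and -0.02 over all genes tested. The magnum values had been capped by the rule relative to 300 days, and the uterus values at 120 days had not. Members were also chosen as high in the magnum and low in the uterus at 300 days, so nothing about them is read from these counts.

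The largest of these differences belonged to the member of rank 7. It stood at 90730, 1049 and 1266 in the magnum and 45, 34 and 28 in the uterus at 120 days, a log2 difference of -7.10 ± 1.63 (SE, limma adjusted p = 0.327, n = 3 each), and at 388860, 327790 and 414941 in the laying magnum. Rank 6 had a log2 difference of -6.71 ± 1.60 (limma adjusted p = 0.341). Replicates 2 and 3 were above every uterus library in both, with replicate 1 far above them. The most abundant member, gene4368, had a log2 difference of -5.24 ± 2.38 (limma adjusted p = 0.734). Its 3 magnum libraries of that age ran from 4406 to 6511037.

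Ranks 31 and 24, of middle level, differed by less, and with less spread. The first stood at 654, 325 and 453 in the magnum and 100, 173 and 186 in the uterus at 120 days (-1.63 ± 0.37, limma adjusted p = 0.325), and the second at 828, 843 and 628 against 249, 388 and 411 (-1.15 ± 0.26, limma adjusted p = 0.325). Rank 4 went the other way, at 17206, 2776 and 10378 in the magnum and 78708, 5570 and 37916 in the uterus, with overlapping libraries (1.69 ± 1.08, limma adjusted p = 0.799).

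The scale on which the libraries are compared set which genes met the rule. On the deposited scale a typical gene is level between libraries. With every library divided by its column total, the median ratio of 300-day to 120-day magnum means over genes with a 300-day mean of at least 10 fell to 0.299, and the same conditions were then met by 6 genes, all of them members, of ranks 2, 5, 10, 12, 15 and 35. On that scale replicate 1 stood at a median of 28.1% of the 300-day mean, against 11.5% on the deposited scale. The mean of the laying magnum was above that of the magnum at 120 days for all 45 members on both scales. All 3 laying libraries were above all 3 magnum libraries at 120 days for 37 members after division by totals and 44 on the deposited scale, and above all 6 uterus libraries for 41 and 45. On the deposited scale the rule fixes the order of the means and largely fixes the other counts. The share over all genes is not given, so nothing about the members is read from these counts. With the deposited FPKM values, 42 genes met the rule and 40 of them were members.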

How the data were processed

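The members and the tests were chosen with earlier results of these data known. The values of the first table were treated as scores, read counts scaled and truncated by the authors before they were deposited: size factors by the median of ratios lay between 0.974 and 1.013. The second deposited table holds FPKM values. The submitters' processing notes name Cufflinks 2.0.2, TopHat2 2.0.8, FastQC 0.11.6, GATK 3.8 and Trimmomatic 0.32 without a role; per the labels' protocols, the kits were RNAsimple Total RNA for extraction and Smarter mRNA-seq Library Prep for the libraries. For build, annotation and counting method the sources used here give nothing; genes that share reads with near-identical or overlapping copies were not separated. Gene length is the authors' deposited column.

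From these, the rule was applied to the scaled counts. Tests were limma's moderated test with a mean trend (limma 3.58.1 in R 4.3.3, with tables and plots made by pandas 2.3.3, matplotlib 3.10.9 and NumPy 2.4.6 under Python 3.11.15) on log2(scaled count + 1), two-sided, fitted on the 6 libraries compared, over genes with at least 10 in at least 3 of them, Benjamini-Hochberg adjusted over all genes, threshold 0.05. The test was also run on simulated data with independent libraries, and no result given here rests on that run. Magnum libraries stayed out of the uterus comparison, since members were chosen through their spread there. A fold on this scale understates changes of low genes. The value of 1 read was the step whose truncated multiples held 96.0% to 99.1% of the values from 1 to 100.

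Identifiers printed are the member with the highest 300-day magnum mean and, among means of at least 5000, the one with the lowest replicate 1 level; members discussed by rank were picked after their values were seen. No 2 libraries were identical. Same-numbered libraries of the segments at 120 days deviated together (correlations of 0.397, 0.629 and 0.428 over genes). Those of the 2 uterus ages did not (-0.0257, -0.0909 and -0.00716). Whether same-numbered libraries of the segments share a bird is not stated in the labels, and the source of the correlation was not tested. The main fit of the segments at 120 days, with its SE and adjusted p, did not pair them. Only the fit with a replicate block did.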

Additional observations from a re-analysis of the deposited data

Results flagged for a closer look

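Loci that the table labels as new genes were kept out of the members, and 3 of the 1579 met the same conditions. The most abundant stood at 130484, 94100 and 60177 scaled counts in the magnum at 300 days, at 1692, 207 and 598 at 120 days, and at 11 to 15 in the 6 uterus libraries. The next stood at 36, 36516 and 3221 in the 3 laying magnum libraries, a 1014-fold range, at 3795, 0 and 2 in the magnum at 120 days, and at 0 to 2 in the uterus. As with the member of rank 6, its replicate 1 at 300 days was below replicate 1 at 120 days. The third stood at 2201, 529 and 1274, at 277, 0 and 3, and at 0 to 6 in the uterus.

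In 4 members, ranks 16, 18, 34 and 37, the 3 uterus libraries at 300 days all lay below the 3 at 120 days while the magnum was higher in every library at 300 days. The magnum direction was fixed by the rule, and the difference between the segments was not tested. The 4 are 8.89% of the members, against 12.1% of the 6716 genes whose laying magnum mean was at least 500 scaled counts, so they are no more than other genes show. Rank 18 stood at 272, 299 and 552 in the uterus at 120 days and 251, 180 and 211 at 300 days, a log2 change of -0.74 ± 0.32 (SE, limma adjusted p = 0.163, n = 3 each). Groups of 3 libraries are too small for a check of single outlying libraries.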

How the results depend on the processing

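The count of 45 genes became 6 when libraries were divided by their totals, 28 with 8-fold and 72 with 2-fold in place of 4-fold, and 21 with a limit of 0.1 for replicate 1. It was 36 to 58 under the other settings of scale, limit and mean. With 1 library of the rule left out, other than replicate 1 of the magnum at 120 days, it was 45 to 58. Without that replicate its limit cannot be applied, and the remaining conditions were met by 95 genes. The median replicate 1 level of 11.5% became 28.1% with library totals and 9.92% to 13.6% with 1 laying magnum library left out. Members that rose in the uterus numbered 2 with a replicate block, 4 to 7 under the other settings and 0 to 8 with 1 library left out, and falls 0 to 1. All genes rising there ranged from 41 to 1423. Between the segments at 120 days 0 members were called, also with the replicate block, except for 2 lower in the uterus in the fit of all 12 libraries. These block and library changes include fewer samples or degrees of freedom. Depth is unknown for 8 libraries, so a listed 0 does not show absence.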

Other observations

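The identifier numbers of 8 of the 45 members were next to that of another member, and 11 were next to a member or to one of the 50 genes that had reached the limit in replicate 1. The longest run was of 4 consecutive numbers, which in order of number had ranks 37, 35, 4 and 2. Of these, rank 35 was listed at 0 in every uterus library while rank 4 had the highest uterus mean of the 45. Whether the numbers follow position in the genome is not given in the sources used here.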
